A study of Saccharomyces cerevisiae with 8 samples.

Results

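SNR6 encodes the U6 RNA of budding yeast, Saccharomyces cerevisiae, and the values described here are those of the 2 intergenic features that lie against this gene. Both were chosen by name out of 6399 features on the arrays. The feature iSNR6 is taken to cover the region between SNR6 and YLR108C, and is called the SNR6 region. This follows a naming rule that was tested here on open reading frame features only. The feature iYLR107W covers the region between REX3 (YLR107W) and SNR6 and is called the REX3 flank. Both are on chromosome XII. SNR6 lies on the Watson strand, as its locus tag YNCL0006W shows, so the REX3 flank is on the upstream side of the gene and the SNR6 region on the downstream side. Array coordinates were not used, and how far each probe reaches towards SNR6 is not known.

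U6 RNA is part of the catalytic core of the spliceosome. It is the only spliceosomal RNA made by RNA polymerase III (Pol III), while U1, U2, U4 and U5 are made by Pol II. SNR6 has an unusual promoter for a yeast Pol III gene, with a TATA box upstream of the start, a box A inside the gene and a box B downstream of its terminator. TFIIIC binds boxes A and B and helps to place TFIIIB upstream of the start, and TFIIIB recruits the polymerase. By the order of the genes, the TATA box falls in the REX3 flank and box B in the SNR6 region. Maf1 is the general repressor of Pol III and acts when nutrients or the TOR pathway fail.

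Binding was measured by chromatin immunoprecipitation and hybridisation to arrays of intergenic regions, for the TFIIIB subunits Bdp1 (Bdp1-13myc) and Brf1 (Brf1-13myc), the TFIIIC subunit Tau95 (t95-13myc) and the largest Pol III subunit C160 (3HA-C160). Each protein has 1 sample treated with 0.2 ng per µl of rapamycin for 30 min and 1 untreated sample (0 min), both from cells growing exponentially in rich YPD medium, which gives 8 groups of 1 array. Rapamycin inhibits the TOR kinase complex. Each array carries a wild-type context in Cy5 and a maf1 deletion context (Dmaf1) in Cy3, per the labels, and which of these strains gave the deposited values is not known. No array holds an untagged strain or a mock precipitation among the samples used here. The labels state triplicate experiments, but a single value per array was used, so no value below carries a replicate error, and no difference has a replicate check or a p-value.

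Values are on the log2 scale, where 0 stands, per the labels, for the median of loci that the Pol III machinery does not bind. They were read as relative brightness of precipitated DNA. The base of 2 shows clearly in the values of the Brf1 array at 30 min alone and was taken for the other arrays, so ratios in folds rest on it. Of the 6399 features, 5760 to 6282 had a value per array, with most missing, 639, on the Brf1 array at 30 min. Both SNR6 features had a value on all 8 arrays. They were set beside 250 features named for nuclear tRNA genes (241 to 245 with a value). Also used were 228 regions on the left of a tRNA gene, as the REX3 flank is on the left of SNR6. Of these, 112 lie upstream of the tRNA gene, as the flank does of SNR6, and 116 downstream. The background was 5125 features away, by gene order and name, from Pol III genes and repeats. Brightness also depends on the probe, so a difference between 2 features is not a difference in the number of bound molecules.

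The SNR6 region was one of the brightest features for all 4 proteins, with and without rapamycin, while the REX3 flank was dim. For Bdp1 the SNR6 region had 5.04 at 30 min and 5.17 at 0 min. These values ranked 56th of 6039 features at 30 min and 52nd of 6028 at 0 min. Of 245 tRNA features 229 lay below it at 30 min and 232 at 0 min. Bdp1, the TFIIIB subunit that locks the factor onto DNA, was thus the protein for which this region ranked highest among all features. Among tRNA features at 30 min C160 was level with it, with 228 of 245 below the region.

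For Brf1, the TFIIIB subunit that bridges TFIIIC, TBP and the polymerase, the SNR6 region had 4.05 at 30 min and 4.02 at 0 min. It ranked 112th of 5760 at 30 min and 150th of 6277 at 0 min. At 30 min 213 of 241 tRNA features lay below it, and at 0 min 191 of 245. Its place among tRNA features was therefore higher after rapamycin (88.4th percentile) than before (78.0th percentile).

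For C160 the SNR6 region had 4.24 at 30 min and 4.53 at 0 min, with ranks of 112 of 6262 and 86 of 6282. Below it were 228 of 245 tRNA features at 30 min and 220 at 0 min. For Tau95 it had 3.77 at 30 min and 3.23 at 0 min, ranking 134th of 6249 and 188th of 6278. Here 209 of 245 tRNA features were below it at 30 min and 198 at 0 min. Relative to the median of the tRNA features, the SNR6 region stood higher at 30 min by 2.08 (Bdp1), 1.72 (Brf1), 1.80 (C160) and 1.45 (Tau95). At 0 min these gaps were 1.89, 0.96, 1.58 and 1.22 in the same order.

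The tRNA features next to it in brightness were close on every array, so its exact rank has little weight. On the Bdp1 array at 0 min tK(CUU)K, a lysine tRNA gene, was next above at 5.22 and tM(CAU)D, a methionine tRNA gene, next below at 5.16. On the C160 array at 30 min tG(UCC)O stood at 4.25 and tL(CAA)G2 at 4.24, against 4.24 for the SNR6 region. These neighbours cannot be ordered without replicates. The brightest tRNA features were well above it: tL(CAA)A reached 6.54 for Bdp1 at 0 min and tW(CCA)G2 6.14 for C160.

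**Figure D1:**
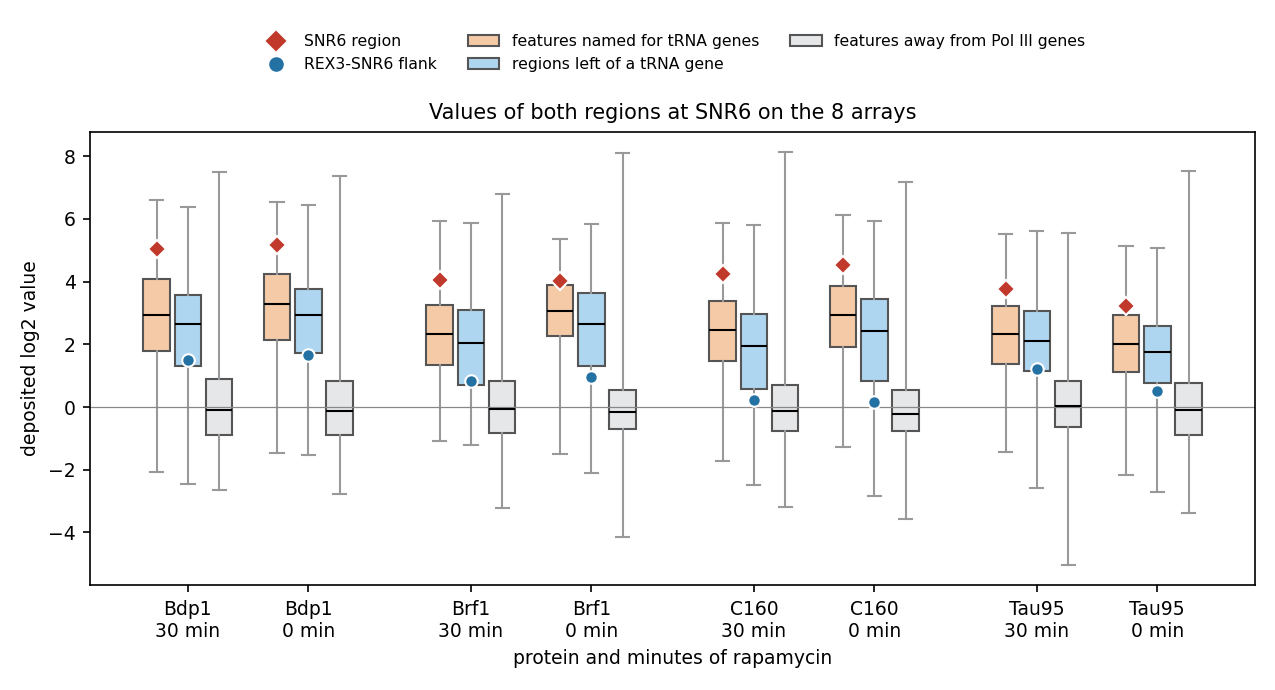
Deposited log2 value (vertical axis) of the SNR6 region (red diamonds) and the REX3 flank (blue circles) on each array, by protein and minutes of rapamycin, over boxes that give the median and quartiles of 3 classes of features, with whiskers from the lowest to the highest value. The SNR6 region lies between 3.23 and 5.17 and above the upper tRNA quartile on all 8 arrays, while the REX3 flank lies between 0.16 and 1.67.

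The REX3 flank, where the TATA box of SNR6 falls by gene order, had 1.50 for Bdp1 at 30 min and 1.67 at 0 min. For Brf1 it had 0.84 at 30 min and 0.97 at 0 min. Both TFIIIB subunits thus stood above the middle of the features away from Pol III genes, at the 85.8th and 89.3rd percentile for Bdp1 (30 and 0 min) and the 75.3rd and 84.5th for Brf1. For C160 it had 0.22 at 30 min and 0.16 at 0 min, at the 62.2nd and 63.6th percentile of that background. For Tau95 it had 1.22 at 30 min and 0.50 at 0 min, at the 82.4th and 67.4th percentile.

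Compared with the regions left of a tRNA gene, the REX3 flank was among the dimmer ones. Of 225 such regions with a Bdp1 value at 30 min 64 lay below it, and at 0 min 54 of 223. For Brf1 58 of 225 were lower at 30 min and 48 of 227 at 0 min. For C160 the counts were 43 of 227 at 30 min and 36 of 227 at 0 min, and for Tau95 61 of 226 and 45 of 227. Regions to the left of tRNA genes on the Watson strand lie upstream of them, as the REX3 flank does of SNR6, and those left of Crick-strand genes lie downstream. Among the upstream ones the REX3 flank stood at the 27.7th (30 min) and 23.2nd percentile (0 min) for C160 and the 33.3rd and 33.0th for Bdp1. Among the downstream ones it stood at the 10.4th and 8.70th for C160 and the 23.7th and 15.8th for Bdp1.

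The gap between the sides of SNR6 differed between proteins. The SNR6 region minus the REX3 flank was at least 4.02 for C160 at 30 min and at least 4.37 at 0 min, bounds because the flank was near background for C160. For Bdp1 it was 3.54 and 3.50, and for Brf1 3.20 and 3.05. For Tau95 it was 2.56 at 30 min and at least 2.73 at 0 min, where the flank was near background too. The measured values had the order C160, Bdp1, Brf1, Tau95 at both times, but the place of Tau95 at 0 min rests on a bound. With the arrays scaled to equal spread, C160 still had the widest measured gap, and Brf1 at 0 min (3.66) then came before Bdp1 (3.12). For comparison, the median of tRNA features exceeded the median of regions left of tRNA genes by 0.22 to 0.52 over the 8 arrays. Those regions mix upstream and downstream sides. For C160 the upstream ones alone had medians of 1.62 (30 min) and 1.82 (0 min), against 2.45 and 2.95 for tRNA features. For Tau95 they had 1.98 and 1.80, against 2.32 and 2.01. A difference of class medians also gives no spread over single genes. A pairing of both sides of each tRNA gene was not made, since the gene table does not carry the tRNA names used on the arrays.

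Farther out, the right side was bright beyond YLR108C as well. The next region, between YLR108C and AHP1 (a thioredoxin peroxidase gene), had 2.66 for Bdp1 at 30 min and 2.16 at 0 min. It had 1.97 and 0.73 for Brf1, 1.73 and 1.45 for C160, and 1.87 and 2.30 for Tau95 (30 min, then 0 min). It was brighter than the REX3 flank on all arrays except Brf1 at 0 min. Among 203 regions in the same position relative to a tRNA gene, on the far side of the next open reading frame on the right, it stood between the 75.4th and the 97.0th percentile over the 8 arrays. The region right of AHP1 was dim, at -1.17 for Bdp1 at 30 min and -1.07 at 0 min, and the region right of REA1 on the other side had -1.70 for Bdp1 at 0 min. Right of CCW12, a cell wall protein gene, C160 had 0.38 at 30 min and -0.06 at 0 min.

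**Figure D2:**
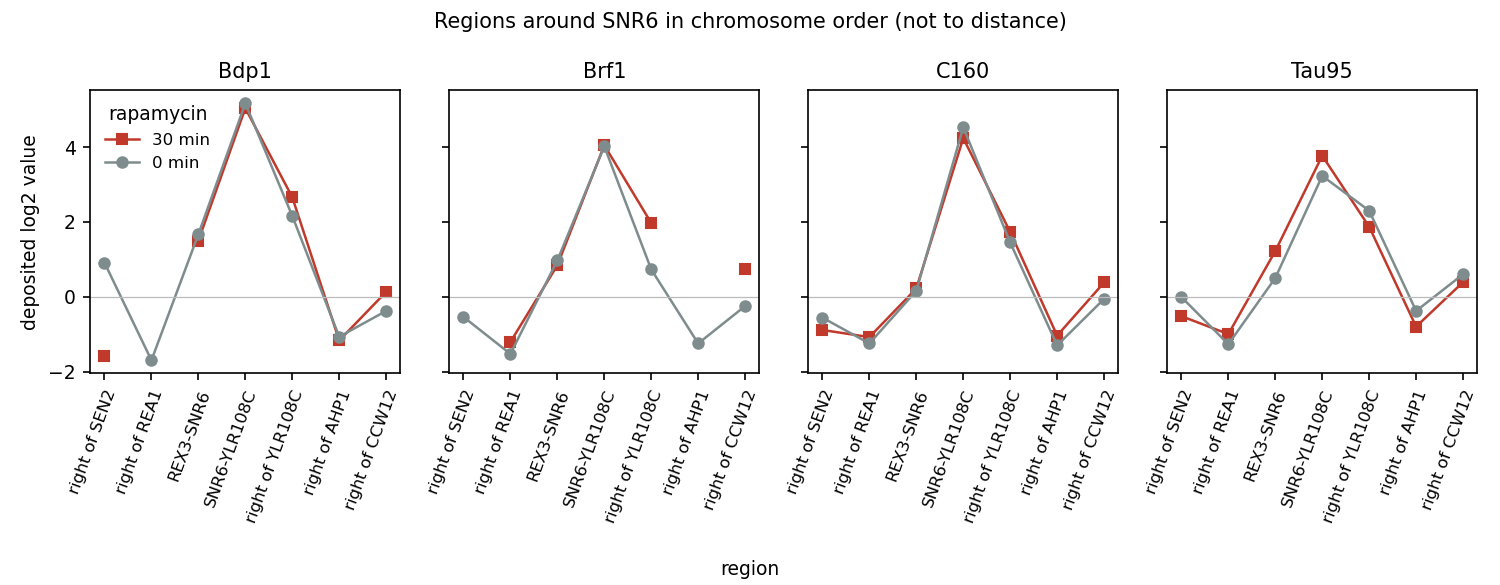
Deposited log2 value (vertical axis) of 7 regions in chromosome order (horizontal axis, evenly spaced and not to distance) for each protein, at 30 min (red squares) and 0 min (grey circles), with gaps where an array lacked a value. The region between SNR6 and YLR108C is the peak in all 4 panels, and the region right of YLR108C is the shoulder, with 2.66 at 30 min and 2.16 at 0 min for Bdp1.

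The proteins were then compared with each other within each feature, in 6 pairs at each time. Since each protein has its own array and tag, a difference has meaning here only beside the same difference at tRNA features. At 0 min Bdp1 and C160 were both high at the SNR6 region relative to Brf1 and Tau95. Bdp1 exceeded Brf1 by 1.15, where the tRNA features had a median of 0.09 (quartiles -0.45 and 0.63, n = 245) and 28 had a larger difference. Bdp1 exceeded Tau95 by 1.94, against a tRNA median of 1.23, with 33 of 245 larger. Brf1 minus C160 was -0.51, against 0.19 at tRNA features, of which 212 were higher. C160 minus Tau95 was 1.30, against 0.86, with 52 higher. Brf1 minus Tau95 (0.78) and Bdp1 minus C160 (0.64) lay within the tRNA quartiles.

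At 30 min the SNR6 region stood closer to the tRNA median for Bdp1 minus Brf1, Brf1 minus C160 and C160 minus Tau95. For the other pairs it did not. Bdp1 minus Brf1 was 0.99, against a tRNA median of 0.59 (quartiles -0.20 and 1.33, n = 241), with 95 higher. Brf1 minus C160 was -0.20, against -0.12. Bdp1 minus Tau95 was 1.26, against 0.53 (n = 245), with 54 higher, and it was the only pair outside the tRNA quartiles. C160 minus Tau95 was 0.47, against 0.14. Bdp1 minus C160 was 0.79, against 0.44, and Brf1 minus Tau95 was 0.27, against -0.03, where the tRNA medians at 0 min were 0.33 and 1.01. For Bdp1 minus C160 the tRNA quartiles lay wider apart at 30 min, but the SNR6 region was within them at both times. The tRNA quartiles of Bdp1 minus Brf1 were -0.45 and 0.63 at 0 min, and the 0.99 of the SNR6 region at 30 min would lie above them. The count of pairs outside the tRNA quartiles thus does not rest on the SNR6 region alone. The tRNA median of Bdp1 minus Brf1 was itself 0.59 at 30 min and 0.09 at 0 min, while the SNR6 region had 0.99 and 1.15.

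At the REX3 flank C160 was low relative to the other proteins in both conditions, beside regions left of a tRNA gene that mix upstream and downstream sides. The upstream regions alone had medians of 2.73 (Bdp1), 1.82 (C160) and 1.80 (Tau95) at 0 min. The downstream ones had 2.97, 2.60 and 1.72 in the same order. By these medians a lower C160 is shared by upstream regions, so the counts below overstate how unusual the flank is. Differences between proteins were not computed for the upstream regions alone. At 0 min Bdp1 exceeded C160 there by 1.52, where regions left of a tRNA gene had a median of 0.45 and 201 of 223 had a smaller difference. C160 minus Tau95 was -0.35, against a median of 0.56, and 31 of 227 were lower. At 30 min Bdp1 minus C160 was 1.28, against 0.47, with 179 of 225 smaller. C160 minus Tau95 was -1.0, against -0.17, with 22 of 226 lower. Brf1 minus C160 was 0.62 at 30 min and 0.81 at 0 min, with 196 of 225 and 183 of 227 such regions smaller. The TFIIIB subunits differed less from the other flanks: Bdp1 minus Brf1 was 0.65 at 30 min and 0.70 at 0 min, within their quartiles.

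**Figure D3:**
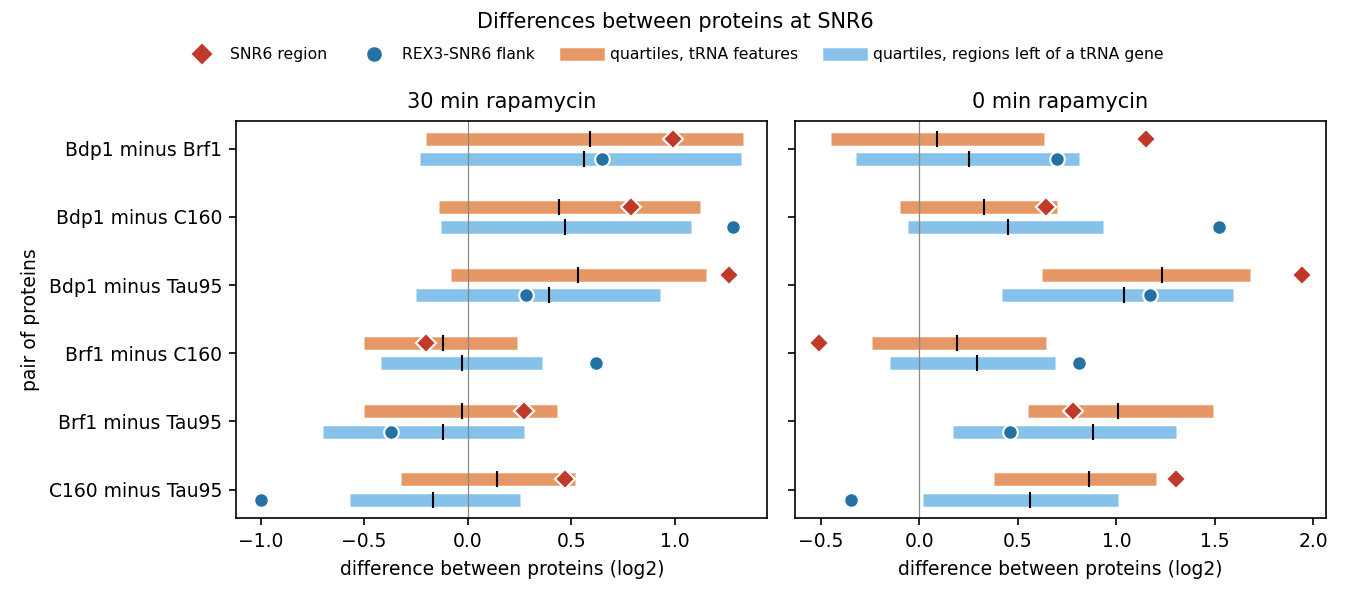
Difference between proteins (horizontal axis, log2) for the 6 pairs at 30 min (left) and 0 min (right), for the SNR6 region (red diamonds) over the quartiles and median of tRNA features, and for the REX3 flank (blue circles) over those of regions left of a tRNA gene. At 0 min the SNR6 region lies outside the bar for 4 of the 6 pairs, with Bdp1 minus Brf1 at 1.15 and Brf1 minus C160 at -0.51, and C160 minus Tau95 at the REX3 flank is -1.0 at 30 min.

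As deposited, both regions differed by less than 2-fold between 30 min of rapamycin and 0 min for each of the 4 proteins. At the SNR6 region the difference of 30 min minus 0 min was -0.14 (Bdp1), 0.03 (Brf1), -0.29 (C160) and 0.54 (Tau95), or ratios of 0.909, 1.02, 0.820 and 1.45. At the REX3 flank it was -0.17 (Bdp1), -0.12 (Brf1), 0.07 (C160) and 0.71 (Tau95), or ratios of 0.887, 0.918, 1.05 and 1.64. So 0 of 8 differences reached a log2 size of 1 as deposited, while with arrays scaled to equal spread the Brf1 change of the SNR6 region was -1.01 and did reach it. A difference of that size in either direction was found at 7.35% (Bdp1), 36.9% (Brf1), 18.4% (C160) and 12.2% (Tau95) of tRNA features, and at 3.50%, 12.4%, 5.53% and 8.68% of all features. Over features away from Pol III genes the interquartile range of the change, divided by 2, was 0.24 (Bdp1), 0.37 (Brf1), 0.28 (C160) and 0.35 (Tau95). The Bdp1 and Brf1 differences at both regions were smaller than that measure, while those of Tau95 at both and of C160 at the SNR6 region were larger. About as many of these background features lie beyond that distance from their median as within it. Passing it therefore does not set a change apart from array scatter. Among them the Tau95 changes stood at the 75.5th (SNR6 region) and 84.9th percentile (REX3 flank). The C160 change of the SNR6 region stood at the 17.4th.

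As deposited, the Brf1 change of the SNR6 region lay above the upper quartile of the tRNA features. The tRNA features had a median change of -0.73 (quartiles -1.27 and -0.07, n = 241), 33.6% of them fell 2-fold or more, and the SNR6 region was 0.75 above that median. Of the 241, 188 had a lower change. Its own change, near 0 as deposited, became -0.07 once each array was centred over all features. With arrays scaled to equal spread it was -1.01, 0.49 above the tRNA median, and 158 of 241 were lower, which places it within the tRNA quartiles. The Brf1 array at 30 min is the one with the most missing values, and the part of this in the result was not tested.

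For the other proteins the change of the SNR6 region lay within the tRNA quartiles as deposited. Its C160 change of -0.29 stood beside a tRNA median of -0.34 (quartiles -0.79 and 0.02, n = 245), and 131 of 245 were lower. For Bdp1 its -0.14 stood beside -0.21 (quartiles -0.46 and 0.05), with 141 of 245 lower. For Tau95 its 0.54 stood beside 0.26 (quartiles -0.07 and 0.68), with 166 of 245 lower. With equal spread the Tau95 change was 0.85, and 187 of 245 were lower (76.3rd percentile), above the upper quartile. Features away from Pol III genes had a Tau95 median of 0.17, and 75.5% of 4997 lay below the value of the SNR6 region.

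The REX3 flank was set beside the regions left of tRNA genes. For Tau95 its 0.71 lay above the median of 0.32 (quartiles -0.03 and 0.73, n = 226), with 167 lower. For C160 its 0.07 lay above -0.30 (n = 227), with 162 lower, and it was -0.01 once arrays were centred over all features. Its C160 values were close to the background at both times. For Brf1 its -0.12 lay above -0.55 (n = 225), with 152 lower, and for Bdp1 its -0.17 was near -0.23 (n = 223), with 124 lower. Tau95 was thus higher at 30 min on both sides of SNR6, by 0.54 and 0.71, while its change at the region beyond YLR108C was -0.43. There Brf1 was higher by 1.24, a change that 98.3% of tRNA features did not reach, with 5.28% of all features higher by 2-fold or more.

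The 4 changes together were small at SNR6. The largest of them had a size of 0.54, and 19 of 241 tRNA features (7.88%) had no change larger than that for any protein, where the median of the largest change was 1.08. Centred over all features the count was 7, and with equal spread it was 45 (18.7%), where Brf1 gave the largest change. At the REX3 flank the largest was 0.71, and 38 of 241 tRNA features had none larger.

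**Figure D4:**
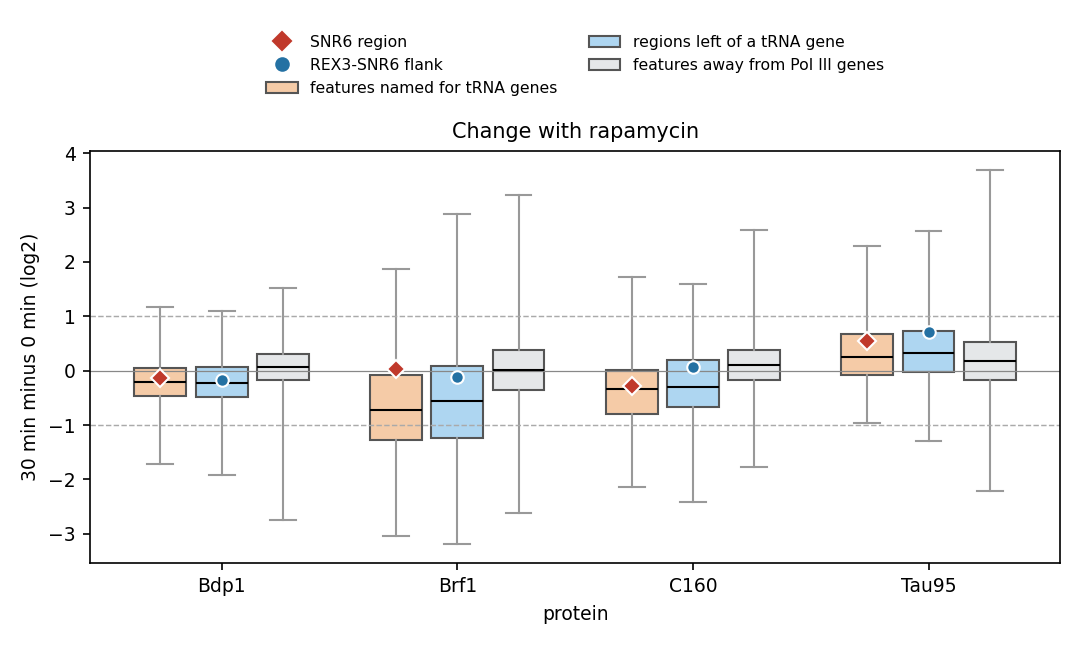
Change with rapamycin (vertical axis, 30 min minus 0 min on the log2 scale) of the SNR6 region (red diamonds) and the REX3 flank (blue circles) for each protein, over medians and quartiles of 3 classes of features with whiskers to the lowest and highest value. Dashed lines mark a 2-fold difference, which neither region reaches as deposited, and for Brf1 the SNR6 region (0.03) lies above the upper tRNA quartile (-0.07).

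Features with values most like those of SNR6 were found by the root mean square difference over the 8 arrays, among 5486 other features with all values. The 5 nearest tRNA features were tR(CCG)L (0.34), tR(UCU)J2 (0.37), tI(AAU)G (0.38), tT(UGU)G1 (0.39) and tF(GAA)H1 (0.40). All 5 had a lower Brf1 value at 30 min, with changes of -0.17 to -0.92, as did 186 of all 241 tRNA features. The SNR6 region had 0.03 as deposited and -1.01 with equal spread, which also shifts the tRNA features. tR(CCG)L had 3.72 for Brf1 at 30 min and 4.49 at 0 min. The 3 nearest features of other kinds were the regions beside TMA10 (0.30), MCM6 (0.32) and YAR009C (0.33), and the next gene after TMA10 and after MCM6 is a tRNA gene. The region beside MCM6 had Brf1 values of 3.64 at 30 min and 3.63 at 0 min. As deposited, the Brf1 changes beside TMA10, MCM6 and YAR009C were -0.47, 0.01 and 0.09.

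For the REX3 flank the nearest tRNA feature was tE(CUC)D-1, a probe beside a glutamate tRNA gene, at 0.36, followed by tM(CAU)C at 0.61. The nearest of other kinds were beside MET30 (0.23), DCV1 (0.26) and HXT15 (0.28), none of which has a tRNA gene as its next gene in the table. The region beside MET30 had 1.36 for Bdp1 at 30 min and 1.38 at 0 min, and 0.48 and 0.51 for C160. The values of the REX3 flank are thus also found at regions with no Pol III gene next to them.

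Features named for Pol III genes of other stable RNAs gave different values, and each stands for a region beside its gene. RPR1, the RNA of RNase P, had 2.74 for Brf1 at 30 min and 3.15 at 0 min, and SCR1, whose RNA is in the signal recognition particle, 3.77 and 2.0. RDN5-1, a 5S ribosomal RNA gene, was brighter than the SNR6 region on all 7 arrays where it had a value, with 5.71 for Bdp1 at 30 min and 5.98 at 0 min. RPR1 and SCR1 had lower Bdp1 values than the SNR6 region, at 2.60 (30 min) and 2.42 (0 min) for RPR1 and 1.86 and 1.88 for SCR1. SNR52, a small nucleolar RNA gene, was dim on the 6 arrays with a value, between -1.60 and -0.86. The features RDN5-2 and RDN5-3 lay between -0.65 and 1.09, and how signal is shared among near-identical 5S copies is not known. The Brf1 change was 1.77 for SCR1, -0.40 for RPR1, -0.79 for RDN5-1, 0.33 for RDN5-2, 0.02 for RDN5-3 and -0.22 for SNR52. In gene order the next gene after SCR1 is another Pol III gene. The values and changes of the SCR1 feature can therefore not be assigned to SCR1 alone.

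Features of the spliceosomal RNA genes made by Pol II were near background. Of the 4 genes of U1, U2, U4 and U5 RNA, 3 had a feature, and that of U1 (SNR19) was not analysed here. LSR1, the U2 gene, had 0.54 for Bdp1 at 30 min and 0.26 at 0 min, and -0.39 and -0.04 for C160. SNR14, the U4 gene, had 0.16 and 0.30 for Bdp1 and -0.28 and 0.20 for C160. The feature of the U5 gene SNR7 had -1.16 at both times for Bdp1 and -0.90 and -1.33 for C160. The SNR6 region exceeded the highest of these features by at least 3.03 on each of the 8 arrays, a bound since they were near background. Of their 12 changes with rapamycin, 3 for each protein, 2 reached 2-fold. These were LSR1 for Brf1 (-1.62) and SNR7 for Tau95 (2.54). Of all features 7.10% fell by 2-fold or more for Brf1 and 6.87% rose by it for Tau95.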

How the data were processed

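Chromatin immunoprecipitates of 4 tagged Pol III factors were hybridised to 2-colour arrays, 1 deposited sample per protein and time. Per the labels, IP DNA of separate precipitations was labelled for each slide. The table deposited by the authors has log2 values, 1 for each feature on each array. By the series' design text in the labels, the authors scaled enrichment ratios of the replicates so that loci not bound by Pol III had a median of 1. Background correction, spot filters, channel and divisor are unstated in these sources. No scanner files were used. The base of the logarithm was read from the values: on the Brf1 array at 30 min, antilogs of base 2 below the median fell on steps of 1/157 with a strength of 0.932 (1 is perfect), against 0.168 for base e and 0.166 for base 10, and base 2 was taken for all arrays, of which only this one shows it clearly. Scale steps, centring and direction beyond this are unknown. Array medians over all features lay between -0.08 and 0.17, and Pearson's r across features (which are not independent replicates) was 0.81 to 0.96 over 28 array pairs.

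No test was run, since each group has 1 sample. The number of arrays limits the precision. Ranks, percentiles (share of a class below a value), differences and root mean square differences were computed with Python 3.11.15, numpy 2.4.6 and pandas 2.3.3, and tested on simulated data. A difference of 1 in log2 size is called 2-fold. tRNA features are those named iT, a letter and a bracket, written with small or capital letters (250, of 243 names). Gene order came from RefSeq genes of assembly R64. Regions left of a tRNA gene are open reading frame features whose next gene is a tRNA gene. On the Bdp1 array at 0 min these had a median of 2.94 (n = 223), against 0.14 (n = 192) for those with a tRNA gene on the other side only. The name of an open reading frame feature thus stands for the region on its right. For features named for RNA genes, such as iSNR6, the same was assumed. Features away from Pol III genes match the gene table, neighbour no Pol III gene in gene order and are not named as a repeat. They still include RDN37-1, a ribosomal DNA feature, which was their highest for Bdp1 at 30 min (7.51).

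Named genes are the members, their neighbours, other Pol III and spliceosomal RNA genes, and the 5 tRNA and 3 other features nearest by root mean square difference. The members and lists were chosen with earlier results of these data known. Planned searches for promoter motifs were not run, as no sequence was used here. Alternatives were 2 other zero points, equal spread of the arrays and 2 other tRNA pools.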

Additional observations from a re-analysis of the deposited data

Results flagged for a closer look

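Changes with rapamycin that ran in opposite directions for a pair of proteins at one region are listed here. With 1 array per group none of these differences was tested. At the SNR6 region the change of Tau95 exceeded that of C160 by 0.83 and that of Bdp1 by 0.68, while the change of Brf1 exceeded that of C160 by 0.31 and that of Bdp1 by 0.16. With each array centred over all features the Brf1 change there was -0.07, so the Brf1 pairs no longer ran in opposite directions. At the REX3 flank the change of Tau95 exceeded that of Bdp1 by 0.89 and that of Brf1 by 0.84. The change of C160 there exceeded that of Bdp1 by 0.24 and that of Brf1 by 0.19, and it was -0.01 with that centring. No group has enough samples for a check of outlying arrays.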

How the results depend on the processing

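Of 72 recomputed values 66 moved by less than the stand-in for an error, the interquartile range of the change over features away from Pol III genes divided by 2, or 5 points for a percentile. The 32 recomputed percentiles moved by at most 1.6 points, and ranks within an array do not depend on its zero point or spread. The other 6 moved when all features not named for a Pol III gene were given the same spread on each array, which changes bright values by construction. The change of the SNR6 region was then -1.01 for Brf1, which reaches 2-fold, and -0.63 for C160. The SNR6 region minus the REX3 flank was then 3.11 (30 min) and 3.12 (0 min) for Bdp1, 3.66 for Brf1 at 0 min and 4.98 for C160 at 0 min. Of 24 recomputed changes 5 had another sign, at values of 0.03 and 0.07 as deposited. They were Brf1 at the SNR6 region, with -0.07 under both other zero points and -1.01 with equal spread, and C160 at the REX3 flank, with -0.01 and -0.02 under the other zero points. The count of tRNA features with no change larger than that of the SNR6 region, 19 as deposited, was 7 or 8 with the other zero points and 45 with equal spread, a comparison added after the data were seen. No paired analysis was possible because each group has 1 sample and no replicate numbers. Leaving out replicates was not possible for the same reason. Without scanner files, signal over background could not be examined.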

Other observations

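Regions beside genes of the proteins that bind U6 RNA or assemble its particle were looked up as a list of 13 genes, of which 11 had features, 12 in all, and LSM8 and LHP1 were not analysed here. They were dim for all 4 proteins, with medians of -0.48 at 30 min and -0.62 at 0 min (Bdp1), -0.70 and -0.45 (Brf1), -0.70 and -0.59 (C160) and -0.25 and -0.79 (Tau95). None of them has a Pol III gene as its next gene in the table. Of their 45 changes over the 4 proteins 2 reached 2-fold. Both were upward and among the 12 changes for Tau95, where 6.87% of all features rose by that much. These were the regions beside BRR2, the helicase that unwinds U4 from U6 RNA, with 1.52 at 30 min and -1.21 at 0 min, and beside PRP24, a U6 RNA binding protein that helps to pair it with U4, with 0.83 and -0.95. The region beside PRP24 had changes of 0.21 (Bdp1), -0.25 (Brf1) and -0.21 (C160) otherwise. LSM6, a subunit of the ring that holds the end of U6 RNA, had the highest Brf1 value of the list at 30 min, 1.37, against 0.49 at 0 min.

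Beside SEN2, on the far side of REA1 from the REX3 flank, the Bdp1 value was -1.59 at 30 min and 0.91 at 0 min, a change of -2.50, where 3.50% of all features differed 2-fold or more. C160 had -0.89 and -0.56 there, and the Brf1 array at 30 min lacked a value.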
